A study of Mus musculus with 4 samples.

Results

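The nutrient switch that sets the lysosomal gene programme was examined here through 10 mouse genes. They are the 4 genes of the MiT family of transcription factors (Tfeb, Tfe3, Mitf and Tfec), the 3 genes of the folliculin complex (Flcn, Fnip1 and Fnip2), the Rag GTPase genes Rragc and Rragd, and Mcoln1, which encodes a lysosomal calcium channel. The genes were chosen by name out of 21887 protein-coding genes of the mouse annotation, for their place in this pathway and with earlier results of these data known. The measurement is chromatin immunoprecipitation followed by sequencing (ChIP-seq) with an antibody to SHP, the product of Nr0b2, a nuclear receptor without a DNA-binding domain that is carried to chromatin by other transcription factors. A gene was counted as occupied where the summit of a wild-type SHP peak, the position of highest signal in the peak, lay within 5 kb of either end of the gene.

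Intestine (jejunum and ileum) came from SHP-knockout mice and from wild-type C57BL/6 mice, all aged 8 to 12 weeks, fasted for 12 h and refed normal chow for 4 h. An immunoprecipitated sample and an input sample were labelled for each genotype, and each of 3 sets was pooled from 3 mice. The knockout list, which shows what the antibody enriches where its target is missing, held 7 peaks, and the wild-type list held 5775. Since all mice were refed, no fasted state was compared. Whole intestine holds many cell types, and neither list assigns a peak to one of them. The lists hold no expression values, so the labelled tissue was not checked against marker genes. Read depth is unknown, and a single list per genotype was used, so the values of a peak were not compared between sets. The only p-values are the deposited ones of each peak, and none was computed here.

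MiT factors are basic helix-loop-helix leucine zipper proteins that bind E-box sequences in the promoters of lysosome and autophagy genes. When nutrients are plentiful, Rag GTPases on the lysosome bring TFEB to the kinase complex mTORC1, which phosphorylates it and so keeps it in the cytoplasm. Folliculin, with its partners FNIP1 and FNIP2, acts on RagC and RagD and is needed for that step. Calcium released through the channel MCOLN1 activates the phosphatase calcineurin, which returns TFEB to the nucleus. The series bears a title that places TFEB downstream of FGF15 and SHP in the fed gut, and the question here is which genes of the switch carried SHP.

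SHP peaks lay at 5 of the 10 genes: Tfeb, Flcn, Fnip1, Fnip2 and Rragc. Over all protein-coding genes the same rule called 5778 of 21887, or 26.4%. By role, the count was 1 of 4 MiT factors, 3 of 3 folliculin complex genes, 1 of 2 Rag genes and 0 of 1 calcium channel genes. The members were picked by name for their shared pathway, so these counts are a description and were not tested against the genome. No knockout peak lay within 50 kb of any of the 10 genes. The closest knockout summit to an occupied gene lay on chromosome 17, 24303743 bp from Tfeb. The knockout list holds only 7 peaks and was filtered in another way than the wild-type list, so a missing knockout peak does not show that a site depends on SHP.

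**Figure D1:**
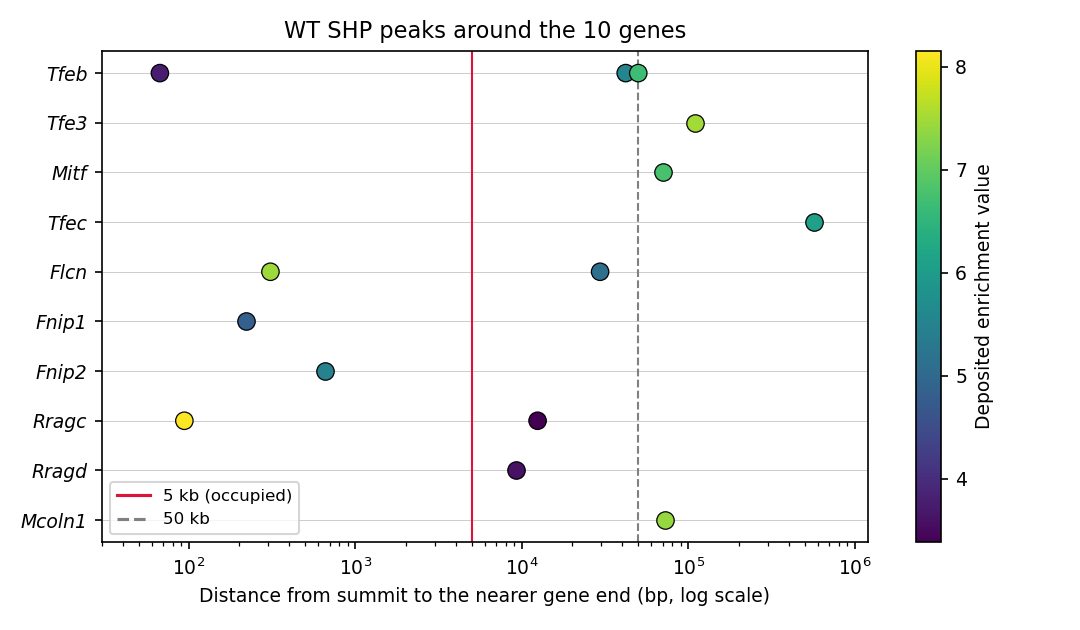
Distance from each wild-type SHP summit to the nearer end of the gene, on a log scale, for the peaks within 50 kb of the 10 genes, or the nearest peak where there was none. Colour gives the deposited enrichment value. In 5 genes a summit lies between 67 and 661 bp from an end, and in the other 5 the closest lies between 9191 and 565555 bp away.

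Tfeb was the only MiT factor with a peak. It lies on chromosome 17 at 47737037-47792416, plus strand, and its peak at chr17:47736890-47738992 had its summit 67 bp downstream of the first annotated start. The authors' enrichment value of this peak was 3.74, and 4.42% of the wild-type peaks had a lower one. Its deposited −log10 p was 10.8, with 11.4% of peaks below it. The peak was 2103 bp wide, wider than 95.6% of the list. Tfeb thus had a low, broad peak. The summit sat 214 bp from the upstream edge and 1888 bp from the downstream edge of the peak. Of the 3 annotated starts of Tfeb, the peak covered the first and the second, 894 bp apart, while the third, 48707 bp from the first, lay in no peak.

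The Tfeb summit was also counted for Pgc, which encodes the gastric protease precursor progastricsin and ends 2626 bp from that summit. Within 50 kb of Tfeb there were 2 more summits. One, with an enrichment value of 5.55, lay inside Mdfi, 266 bp from the annotated start of that gene. The other, with 6.66, lay 7704 bp from the start of Mdfi, which encodes an inhibitor of myogenic helix-loop-helix factors. They lay 42009 and 49979 bp from Tfeb.

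Tfe3, Mitf and Tfec had no summit within 50 kb. Tfe3, a relative of Tfeb that is regulated through the same Rag step, lies on chromosome X at 7762530-7775202. The nearest summit was 108893 bp away, 174 bp from an end of Slc35a2, a nucleotide sugar transporter gene. Mitf, best known for its role in pigment cells, lies on chromosome 6 at 97807002-98021360. None of its 3 annotated starts, spread over 184725 bp, lay in a peak, and the nearest summit was 70097 bp away. Tfec, known mainly from macrophages, lies on chromosome 6 at 16830927-16898464. Its nearest summit was 565555 bp away, 670 bp from an end of Met, the receptor gene of hepatocyte growth factor. That summit lay 62 bp from an annotated start of Met. The peak list gives no signal where no peak was called, so weaker binding at these 3 genes was not measured.

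All genes of the folliculin complex had a peak at the start. Flcn, which encodes folliculin, lies on chromosome 11 at 59791408-59810039, minus strand. Its peak at chr11:59809245-59810597 had an enrichment value of 7.45, above 93.1% of the list, and a −log10 p of 23.2, above 94.9%. The deposited score was 1000, the highest the list gives, which 1466 of 5775 peaks (25.4%) share. The summit lay 309 bp downstream of the annotated start. A further summit, 29479 bp from Flcn, had a value of 5.10 and lay 249 bp from the start of Cops3, a gene of the COP9 signalosome.

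Fnip1 and Fnip2, which encode alternative partners of folliculin, had peaks of lower value than Flcn. Fnip1 lies on chromosome 11 at 54438107-54518241, plus strand, and its peak at chr11:54437861-54438739 had a value of 4.83, above 22.1% of the list, and a −log10 p of 13.1. Fnip2 lies on chromosome 3 at 79455971-79568151, minus strand, and its peak at chr3:79566988-79568554 had a value of 5.50, above 43.5% of the list, and a −log10 p of 13.7. Both peaks thus stood below the list median in both measures, which was 5.65 for the enrichment value and 14.8 for the −log10 p. The summits lay 147 bp downstream of the Fnip1 start and 189 bp downstream of the Fnip2 start. No other summit lay within 50 kb of either gene.

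Of the Rag genes, Rragc had a peak at its start and Rragd had none within 5 kb. Rragc, which encodes RagC, lies on chromosome 4 at 123917433-123936997, plus strand, and its peak at chr4:123917087-123918216 had the highest enrichment value of the 5, 8.15, above 97.4% of the list. Its −log10 p was 25.9, its score 1000, and its summit lay 94 bp downstream of the start. An upstream summit 12419 bp from Rragc had a value of 3.38 and lay 1 bp from the start of Mycbp, which encodes a MYC-binding protein. Rragd, which encodes RagD and is known as a target of MiT factors, lies on the same chromosome at 32982998-33022180, plus strand. The nearest summit was 9191 bp beyond its far end, with a value of 3.59, and lay 9 bp from the start of Ube2j1, a ubiquitin-conjugating enzyme gene of the endoplasmic reticulum. No summit lay nearer to the Rragd start than 48373 bp. With a limit of 10 kb, Rragd would be counted through that peak at Ube2j1.

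Mcoln1, which encodes the lysosomal calcium channel, lies on chromosome 8 at 3500519-3515232, plus strand, and had no summit within 50 kb. The nearest, with a value of 7.39, was 72496 bp away, 491 bp from an end of Camsap3, a gene for a protein that binds the minus ends of microtubules.

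Among the 5 peaks the enrichment values ran from 3.74 at Tfeb through 4.83, 5.50 and 7.45 to 8.15 at Rragc, with a median of 5.50, against 5.65 over the list. The median −log10 p was 13.7 over the 5 peaks, against 14.8 over the list. Peaks at Rragc and Flcn therefore stood in the upper part of the list and those at Fnip2, Fnip1 and Tfeb below its median. The order by −log10 p was the same. These values are shared: both the enrichment value and the −log10 p of Tfeb recurred together in 11 other peaks of the list, those of Flcn in 3, of Fnip1 in 38 and of Fnip2 in 45. Those of Rragc recurred in no other peak. By width the order changed, with Tfeb at 2103 bp, Fnip2 at 1567 bp, Flcn at 1353 bp, Rragc at 1130 bp and Fnip1 at 879 bp, against a list median of 978 bp.

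**Figure D2:**
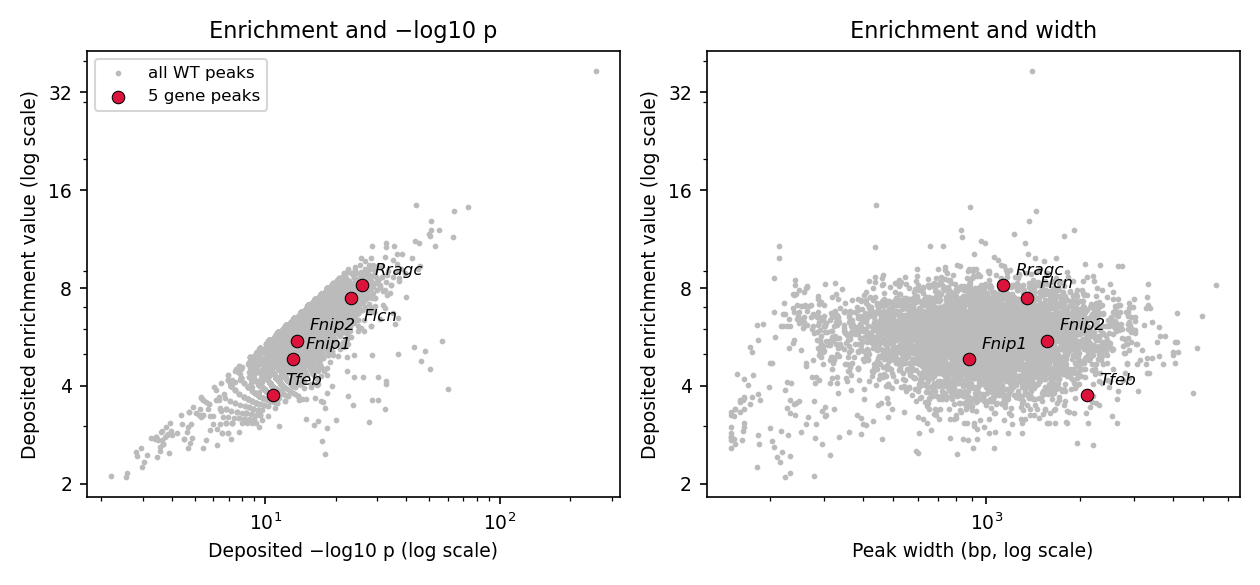
Deposited enrichment value against deposited −log10 p (left) and against peak width in bp (right), on log scales, for all 5775 wild-type peaks in grey and the 5 peaks at Tfeb, Flcn, Fnip1, Fnip2 and Rragc in red. Rragc and Flcn lie high in the list, and Tfeb lies low in value at a width of 2103 bp.

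The 5 peaks shared a position that the rule did not ask for. The rule accepted either end of a gene, and all 5 summits lay at the 5′ end, none at the 3′ end. Of the 4663 occupied protein-coding genes with a strand in the promoter table, 4149 (89.0%) had a summit within 5 kb of the 5′ end. All 5 summits lay downstream of the nearest annotated start, at 67, 309, 147, 189 and 94 bp for Tfeb, Flcn, Fnip1, Fnip2 and Rragc. Over the list, 3805 of the 5633 summits on chromosomes with annotated starts in the table (67.5%) lay within 1 kb of a start, and of these 68.3% were downstream, with a median of 68 bp and quartiles of -34 and 165 bp, negative values being upstream. The summits at Flcn and Fnip2 lay beyond the upper of these quartiles. In each of the 5 cases the gene itself was the nearest protein-coding gene to the summit.

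**Figure D3:**
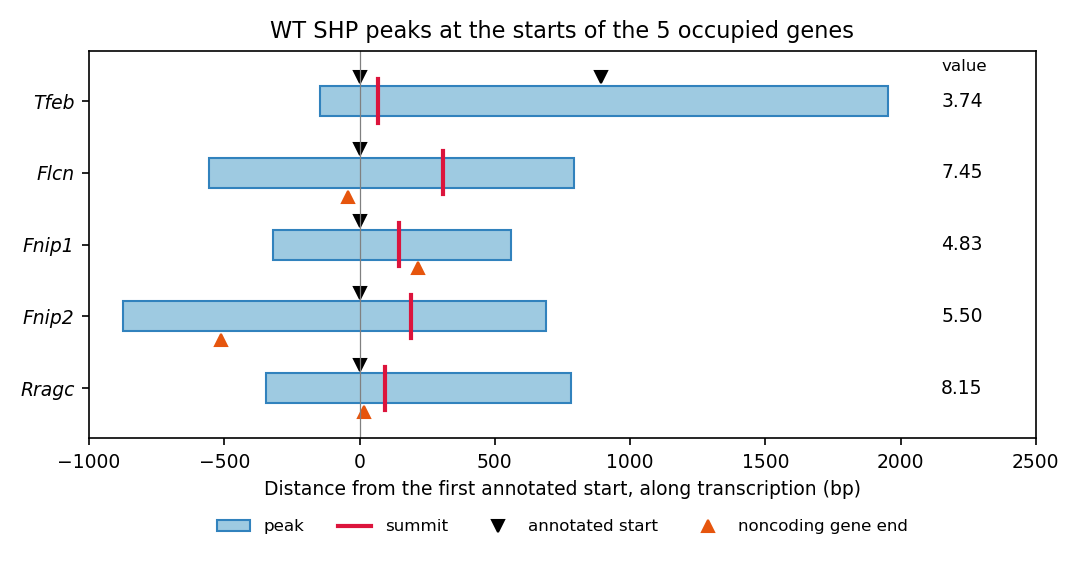
Extent (bars) and summit (red) of the wild-type SHP peaks at the 5 occupied genes, as distance in bp from the first annotated start along the direction of transcription. Black triangles are annotated starts, orange triangles the ends of noncoding genes whose end lies within 5 kb of the summit, and numbers the deposited enrichment values. Every summit lies downstream of the first start, by 67 to 309 bp, and the Tfeb peak covers 2 starts.

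Noncoding genes of the annotation end or begin beside 4 of the 5 occupied starts. Gm16062 has an end 41 bp from the start of Flcn, LOC115487771 one 216 bp from the start of Fnip1, 4930589L23Rik one 513 bp from the start of Fnip2, and D130007C19Rik one 16 bp from the start of Rragc. The first 3 are long noncoding RNAs and the last is listed as a miscellaneous RNA. At the starts of the 5 genes without a peak, 0 had a noncoding gene end within 1 kb. Over the genome such an end lay at 628 of 4663 occupied genes (13.5%) and at 1098 of 12829 genes that were not occupied (8.56%). This feature was looked at after the peaks had been seen. Signal at these 4 sites cannot be assigned to the coding or the noncoding gene.

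The promoter windows of the occupied genes are shown because the peaks lie on them. Each window runs from 250 bp before to 50 bp after an annotated start (RefSeq, GRCm38.p6, the coordinates of mm10). The whole window lay inside the peak, except for the first Tfeb window, of which 197 of 300 bp did. Sequences run 5′ to 3′ along the gene, and capitals mark the E-box bound by MiT factors (CACGTG) and the full cyclic AMP response element, or CRE (TGACGTCA).
Tfeb, first start, chr17:47736787-47737086, plus strand: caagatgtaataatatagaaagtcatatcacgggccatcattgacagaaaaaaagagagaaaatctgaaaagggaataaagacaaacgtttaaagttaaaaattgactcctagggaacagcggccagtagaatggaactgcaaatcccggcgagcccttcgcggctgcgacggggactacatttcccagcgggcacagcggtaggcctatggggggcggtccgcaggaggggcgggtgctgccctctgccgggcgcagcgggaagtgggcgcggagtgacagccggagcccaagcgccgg
Tfeb, second start, chr17:47737681-47737980, plus strand: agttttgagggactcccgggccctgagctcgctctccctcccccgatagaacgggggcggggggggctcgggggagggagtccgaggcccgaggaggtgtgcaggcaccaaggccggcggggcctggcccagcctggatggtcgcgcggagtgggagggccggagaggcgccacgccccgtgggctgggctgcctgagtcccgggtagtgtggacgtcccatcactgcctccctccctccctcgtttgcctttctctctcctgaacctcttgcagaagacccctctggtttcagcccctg
Flcn, chr11:59809990-59810289, minus strand: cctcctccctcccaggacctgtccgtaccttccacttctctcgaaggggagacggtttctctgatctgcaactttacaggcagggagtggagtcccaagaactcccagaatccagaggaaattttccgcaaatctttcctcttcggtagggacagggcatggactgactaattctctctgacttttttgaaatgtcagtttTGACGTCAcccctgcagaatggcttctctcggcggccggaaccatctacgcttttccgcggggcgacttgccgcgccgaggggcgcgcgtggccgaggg
Fnip1, chr11:54437929-54438228, plus strand: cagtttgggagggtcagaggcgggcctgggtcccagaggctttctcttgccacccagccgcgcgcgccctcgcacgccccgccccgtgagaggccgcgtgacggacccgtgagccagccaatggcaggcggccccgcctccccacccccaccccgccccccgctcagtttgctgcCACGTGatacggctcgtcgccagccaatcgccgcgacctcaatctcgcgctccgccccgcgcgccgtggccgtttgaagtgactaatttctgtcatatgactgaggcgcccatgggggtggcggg
Fnip2, chr3:79567630-79567929, minus strand: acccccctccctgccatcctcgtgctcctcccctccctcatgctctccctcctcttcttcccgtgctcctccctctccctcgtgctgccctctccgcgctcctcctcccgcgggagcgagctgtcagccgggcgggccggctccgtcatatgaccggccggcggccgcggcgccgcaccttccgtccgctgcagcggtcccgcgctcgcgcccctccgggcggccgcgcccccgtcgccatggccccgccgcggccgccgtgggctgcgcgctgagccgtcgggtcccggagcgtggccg
Rragc, chr4:123917183-123917482, plus strand: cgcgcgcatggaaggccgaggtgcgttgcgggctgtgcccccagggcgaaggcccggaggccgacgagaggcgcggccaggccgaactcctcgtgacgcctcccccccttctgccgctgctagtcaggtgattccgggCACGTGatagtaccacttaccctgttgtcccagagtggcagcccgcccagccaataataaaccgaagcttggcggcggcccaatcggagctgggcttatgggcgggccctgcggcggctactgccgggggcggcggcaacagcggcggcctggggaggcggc

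The E-box occurred in the windows of Fnip1 and Rragc, which had peaks, and of Mcoln1, which had none. Both occupied genes had a single copy, from -75 to -70 bp in Fnip1 and from -112 to -107 bp in Rragc, counted from the annotated start. Mcoln1 had 2 copies, from -71 to -66 and from -45 to -40 bp. The summits lay 217 bp from the E-box of Fnip1 and 201 bp from that of Rragc, so neither summit sat on the motif. The windows of Tfeb, Flcn, Fnip2, Tfe3, Mitf, Tfec and Rragd held no E-box. The sites are set side by side with 12 bases on each side, in capitals the E-box, to show that an intact E-box stood both with and without a peak.
Fnip1, chr11:54438092-54438121, plus strand: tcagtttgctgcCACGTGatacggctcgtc
Rragc, chr4:123917309-123917338, plus strand: ggtgattccgggCACGTGatagtaccactt
Mcoln1, upstream copy, chr8:3500436-3500465, plus strand: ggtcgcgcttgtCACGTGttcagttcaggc
Mcoln1, downstream copy, chr8:3500462-3500491, plus strand: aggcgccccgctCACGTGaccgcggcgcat

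Over all 21263 windows of protein-coding genes, the E-box CACGTG was present in 7.84%, namely in 11.3% of the 4373 windows under a wild-type peak and in 6.93% of the 16890 others. It was present in 2 of 6 windows of the 10 genes under a peak and in 1 of 9 others. Motifs were searched on both strands, and a match is a description of the letters, not of a bound factor. The variant CATGTG, which MiT factors also read, was in none of the 15 windows, beside 6.06% of all windows under a peak and 13.0% of the rest.

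For the factors best known to carry SHP and for intestinal and inducible factors, the counts in 15 windows are too small to be read against the shares of all windows. The extended half-site of LRH-1 (NR5A2), CAAGGTCA, was in none of the 15 windows, beside 0.983% of all windows under a peak and in 1.43% of the rest. Its variant CAAGGCCA was in 0 of 6 windows under a peak and 1 of 9 others, at the third start of Mitf, beside 57 of the 4373 windows under a peak and 372 of the 16890 others. The FXR inverted repeat was in none of the 15 windows and in 1 of all 21263. The HNF4 core CAAAGTCCA was in none of the 15, beside 0.229% and 0.509%. The GATA motif AGATAA was in none of the 15 windows, beside 3.18% of all windows under a peak and 11.3% of the rest. The CDX motif TTTATG was in 0 of 6 windows under a peak and 1 of 9 others, at the third start of Mitf, beside 3.96% and 11.2%. The AP-1 motif TGANTCA was in 0 of 6 and 1 of 9, at the second start of Tfe3, beside 3.13% and 7.99%.

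The GC box GGGCGG was in 5 of 6 windows under a peak, all but that of Flcn, and in 4 of 9 others, against 77.2% of all windows under a wild-type peak and 38.2% of the rest. The full CRE, TGACGTCA, was in the Flcn window, from -49 to -42 bp, and at the third start of Mitf, 1 of 6 and 1 of 9 windows, against 3.75% of all windows under a peak and 1.84% of the rest. The CRE half-site TGACG, which every full CRE contains, was in the windows of Flcn, Fnip1, Fnip2 and Rragc, 4 of 6, and in 1 of 9 others, against 34.9% of all windows under a peak and 20.7% of the rest. The CCAAT box was in 2 of 6 and 3 of 9 windows, against 36.5% and 38.6%.

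The occupied windows were rich in GC and CpG, as were windows under peaks in general. The 6 windows under a peak had a median GC content of 70.3% (range 56 to 78%), and the other 9 had 59% (40 to 65%), so the groups overlap. Over all genes the medians were 66% under a peak and 53.7% elsewhere. CpG dinucleotides numbered 27 at the median in the 6 windows (range 20 to 44) and 8 in the other 9 (range 3 to 30), the same medians as over all windows under a peak (27) and elsewhere (8). Fnip2 had the most, with 44. Mcoln1, with 30 CpG dinucleotides and 65% GC, and the first start of Mitf, with 22 and 62.7%, had no peak although they lay in the range of the occupied windows. Rragd, with 6 CpG dinucleotides, stood well below its paralogue Rragc, with 32. Whether base composition plays a part in where peaks were called was not tested.

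**Figure D4:**
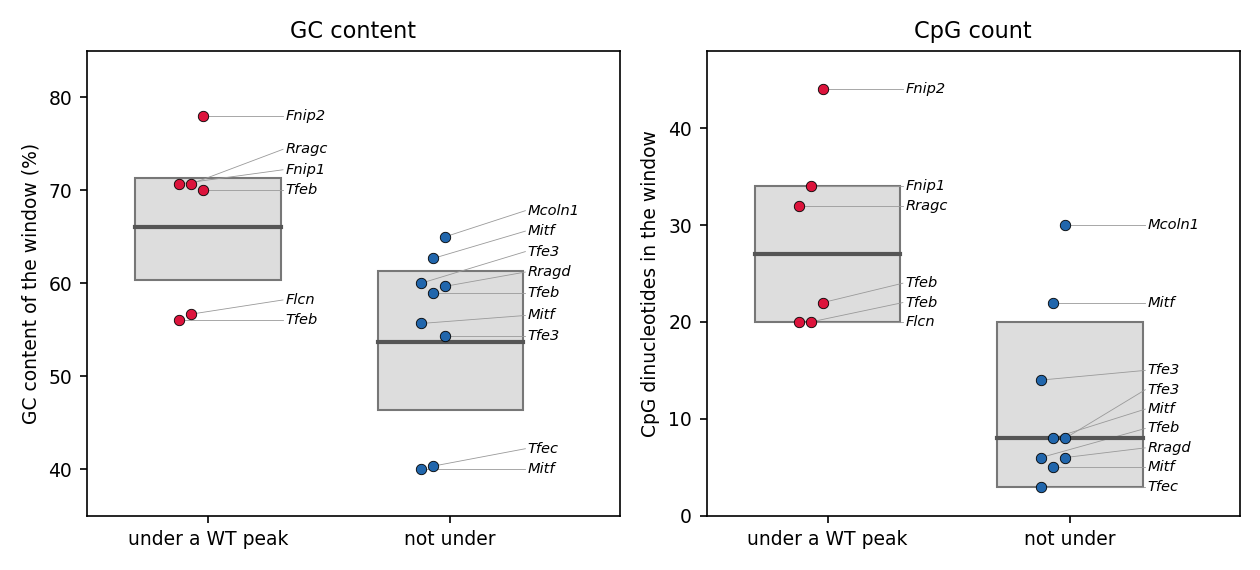
GC content (left, in %) and number of CpG dinucleotides (right) of the 300 bp promoter windows of the 10 genes, for 6 windows under a wild-type peak (red) and 9 not under one (blue). Grey boxes give the quartiles and median of all protein-coding windows of each kind. CpG medians are 27 and 8 in both sets, and Mcoln1, with 30, is the highest of the windows without a peak.

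The rest of the pathway was then read from 6 lists with 126 genes, none of them among the 10. The occupied share was 50% of the 10 genes, 53.2% of the list genes (67 of 126) and 26.4% of all protein-coding genes. The lists too were chosen with earlier results known, so the shares are a description. Counting only summits within 5 kb of an annotated start, and only genes with a start in the promoter table, 12 of 15 E-box relatives, 7 of 15 Rag, Ragulator and mTORC1 genes, 7 of 14 GATOR and sensor genes, 12 of 23 genes acting on TFEB, 2 of 11 channel and phosphoinositide genes and 7 of 24 TFEB targets were occupied, beside 24.3% of all genes. The median enrichment value was 5.63 at the 67 genes and 5.73 at all 5778 occupied genes. The gene itself was the nearest protein-coding gene to its strongest summit at 53 of the 67, and at the other 14 a neighbour lay nearer.

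E-box-binding relatives of the MiT factors had peaks at 15 of 19 genes (78.9%). The highest values were at Mnt (7.38), a MAX-binding repressor, Usf2 (7.31), an E-box factor of the USF family, Mlx (6.72), the partner of the carbohydrate sensor ChREBP, and Mxd1 (6.60). Of their strongest summits only that of Mxd1, 108 bp from an end, was nearest to the gene itself. The strongest summits of the others lay nearer to Sgsm2, Lsr and Coasy, neighbours that were named after the values had been seen. Mnt had another summit, 1194 bp from an end and 1076 bp from an annotated start. Within 1 kb of an end, 8 of the 19 genes (42.1%) were occupied, beside 20.7% of all protein-coding genes. Myc (4.86), Max (5.10), Usf1 (5.80), Srebf1 (5.31), Clock (5.26) and Npas2 (6.00) were among the occupied genes.

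Of the Rag, Ragulator and mTORC1 genes, 9 of 17 (52.9%) were occupied. The highest value was 7.87 at Rraga, which encodes a partner of RagC, with a summit 1 bp from an end. Rragb, like Rragd, had no summit within 5 kb. Mtor (6.63), the kinase itself, Lamtor2 (6.12), of the Ragulator complex that anchors Rag proteins to the lysosome, and Tbc1d7 (6.12), of the TSC complex that restrains mTORC1, followed. The Mtor summit was 3966 bp from an end. The strongest summit of Lamtor2 was nearer to Ubqln4 than to Lamtor2, but another lay 126 bp from the annotated start of Lamtor2. Rptor, Rheb, Tsc1, Tsc2 and Slc38a9, the lysosomal arginine sensor, had no summit within 5 kb.

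The GATOR complexes and amino acid sensors, which set the nucleotide state of the Rag proteins, had peaks at 10 of 17 genes (58.8%). Sec13 (8.19), a shared subunit of GATOR and of vesicle coats, Castor2 (7.38), of the CASTOR arginine sensor family, and Bmt2 (6.66), the sensor of S-adenosylmethionine, had summits 97, 130 and 172 bp from an end. Wdr24 (6.15) had its summit 4166 bp away, 23 bp from Stub1. Stub1 is in the list of genes acting on TFEB, so this peak was counted in both lists.

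Kinases, phosphatases and binding proteins that act on TFEB had peaks at 13 of 29 genes (44.8%). All 3 calcineurin genes listed were among them, the regulatory subunit gene Ppp3r1 with 8.15 and the catalytic subunit genes Ppp3ca with 6.56 and Ppp3cb with 5.64. Ywhah (6.63), an adaptor of the family that holds phosphorylated TFEB in the cytoplasm, Gsk3b (5.39), a kinase of TFEB, and the nuclear export receptor gene Xpo1 (5.33) were also occupied. Of the 6 listed genes of that adaptor family, Ywhag (5.48) and Ywhaq (4.93) were occupied as well, and Ywhab, Ywhae and Ywhaz were not. Gsk3a, the kinase genes Akt1 and Akt2, and Rcan1, which encodes a regulator of calcineurin, had no summit within 5 kb of either gene end, though a summit lay 62 bp from an annotated start of Akt2 inside the gene. Zkscan3, a repressor of lysosome genes, had no summit within 50 kb.

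Lysosomal channels and phosphoinositide genes were occupied at 3 of 12 (25%), close to the share of all genes. These were Fig4 (7.83), a phosphoinositide phosphatase, and the endolysosomal cation channel genes Tpcn2 (7.77) and Tpcn1 (5.27), all within 1 kb of an end. Mcoln2 and Mcoln3, the relatives of Mcoln1, had no summit within 50 kb, so none of the mucolipin genes was occupied.

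Known TFEB targets of lysosome and autophagy were occupied at 17 of 32 genes (53.1%) when either gene end counted. At 4 of the 17 another gene lay nearer to the summit, and with annotated starts only the count was 7 of 24, beside 24.3% of the 17492 genes with a start. Scarb2 (9.03), a lysosomal membrane receptor, Vps11 (8.65), a vesicle tethering subunit, Sqstm1 (7.19), the autophagy receptor, and Ppargc1a (7.02), the coactivator that TFEB induces, had the highest values. The Vps11 summit was 3657 bp from an end of the gene. The summit at Ppargc1a was 202 bp from an end of the gene but 548330 bp from the start in the promoter table.

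**Figure D5:**
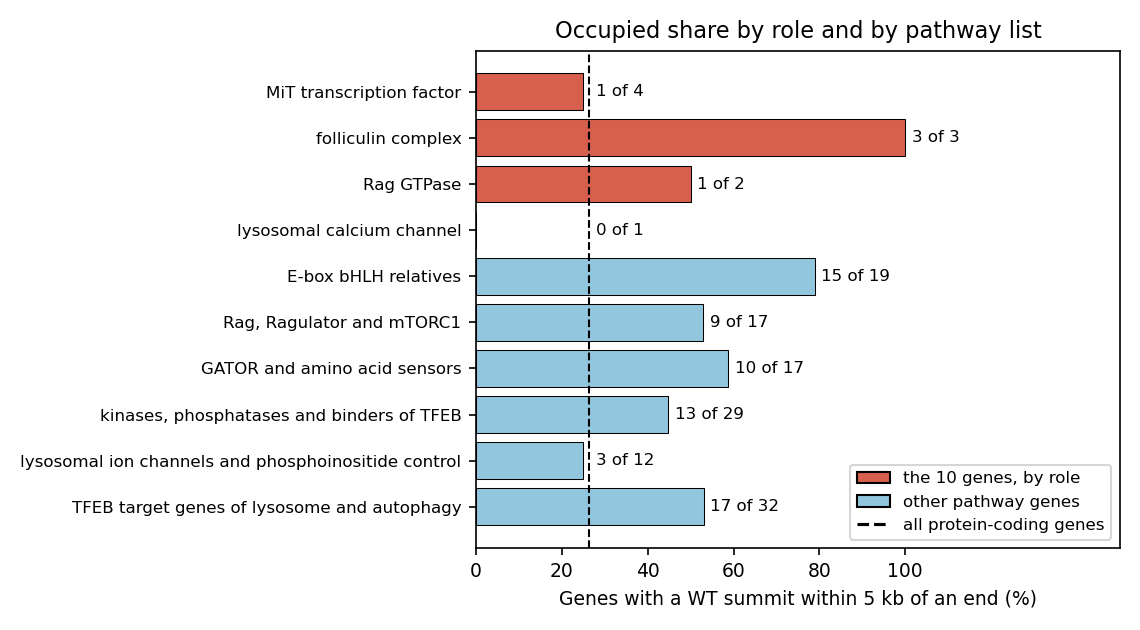
Share of genes with a wild-type summit within 5 kb of an end, in %, for the 10 genes by role (red) and for 6 lists of other pathway genes (blue), with the number occupied beside each bar. The dashed line is the share of all protein-coding genes, 26.4%. Folliculin complex genes (3 of 3) have the highest share and the calcium channel (0 of 1) the lowest, both over very few genes.

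Counts were also made under other rules, each beside its share over all protein-coding genes. The same 5 genes were occupied when the limit was 1 kb (20.7% of all genes), with the nearest protein-coding gene only (21.0%), with any base of a peak within 5 kb (26.9%), and with annotated starts only, within 5 kb (24.3%) or 1 kb (22.1%). With a limit of 10 kb (30.5% of all genes) or 50 kb (48.2%), Rragd joined them and the count was 6 of 10. When peaks under the list median were left out, by −log10 p (14.8% of all genes) or by enrichment value (13.9%), Flcn and Rragc were left, 2 of 10, and Tfeb was no longer counted.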

How the data were processed

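SHP ChIP-seq peak lists of SHP-knockout and wild-type intestine were used, 1 list per genotype; no input file was used. CASAVA 1.4, BWA and mm10 are named in the submitters' processing notes. The sources used here do not give the peak caller, its settings or any pooling of sets. The deposited lists have 10 columns and no header. The knockout list is named as overlapping peaks and the wild-type list as passing a threshold of 0.05 on the irreproducible discovery rate, which scores the agreement of replicate rankings. Each peak carries a deposited score, a deposited signal of unstated scale (called the enrichment value), a deposited −log10 p and −log10 q, and a summit offset. These are the authors' values, were used to describe and rank peaks within a list, and depend on depth and filter.

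Positions were made 1-based. Gene ends came from RefSeq (GRCm38.p6, chromosomes 1 to 19, X and Y), and starts, strands and sequences from its promoter table, which held 17492 of the 21887 protein-coding genes, all 10 genes among them. Distances, counts and 13 motifs were computed in Python 3.11.15 (pandas 2.3.3), and the occupancy call was tested on simulated peaks. No significance test was made, since there is 1 list per genotype and genes are not replicates. The 10 genes and the 6 pathway lists were chosen with earlier results of these data known. Text names the 10 genes, protein-coding genes sharing their summits, and the 4 highest values of each list, of which some are not reported here; other list genes, neighbours and noncoding genes were named after their values were seen.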

Additional observations from a re-analysis of the deposited data

How the results depend on the processing

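Of the 10 genes, 2 were occupied when peaks under the median −log10 p were left out, and 2 when those under the median enrichment value were, against 5 with all peaks. Of the 126 pathway genes, those thresholds left 38 and 32, against 67. Over all protein-coding genes the shares were 14.8% and 13.9%, against 26.4%. These thresholds keep fewer peaks by construction. With annotated starts only, within 1 kb, a rule added after the data were seen, the pathway count was 42, of 102 genes with a start in the table. Over all genes with a start, that rule called 22.1%. The other rules gave 5 or 6 of the 10 genes and 47 to 98 of the pathway genes. The 47, out of the same 102 genes, came from annotated starts within 5 kb, beside 24.3% of all genes with a start. The 98, out of 126, came from the limit of 50 kb, beside 48.2% of all protein-coding genes. Knockout peaks near the 10 genes numbered 0 at 5, 10 and 50 kb.

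No paired analysis was possible because each genotype has 1 list and no list for each set. For the same reason no fit without a replicate was run. Read depth is not given, so signal below the calling threshold, and the size of any knockout to wild-type difference at a site, were not measured.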
